A study of Homo sapiens with 12 samples.

Results

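Kidney tubule injury markers are genes whose products rise in the tubule epithelium, in urine or in blood when the kidney is damaged. The members described here are 10 such genes: HAVCR1, LCN2, CLU, SPP1, CD44, VIM, VCAM1, SOX9, TIMP1 and CST3. They were listed by symbol, and each was read from the probe set with exactly 1 gene symbol and the highest mean over all 12 arrays. Of the 10 members, 9 were among the 10050 genes tested. LCN2 was not detected, which here means that it stayed under 5 log2 units on every array.

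The arrays measured total RNA of HK-2, an immortalised human cell line of proximal tubule epithelium, in a study of how kidney-toxic compounds alter gene expression. There were 4 groups of 3 samples, named by treatment and duration: Ra 48 h, control 48 h, Ra 12 h and control 12 h. Ra is a compound known here only by that name, and its dose is not given in the sources used here. Control cells received vehicle, and both treatments began on nearly confluent cells in a hormone-supplemented medium with epidermal growth factor and hydrocortisone. All groups are therefore 1 cell line in culture, without blood, immune cells or neighbouring tubule segments. The labels call the samples biological replicates, and nothing says that they came from separate cultures, so p-values measure the spread between these samples. In bulk RNA, fewer cells of a kind and less RNA per cell cannot be told apart.

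After injury, proximal tubule cells lose differentiated features, spread, divide and rebuild the epithelium. Surviving cells put the scavenger receptor KIM-1 (encoded by HAVCR1) on their surface, switch on the transcription factor SOX9, assemble vimentin filaments (VIM) and use CD44, a receptor for hyaluronan and osteopontin. Cells that fail to recover are known for lasting expression of the adhesion molecule VCAM1. Secreted products complete the set: the iron-carrier-binding protein NGAL (LCN2), the chaperone clusterin (CLU), osteopontin (SPP1), the metalloproteinase inhibitor TIMP1 and cystatin C (CST3), which is also used in blood to estimate filtration.

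Promoters are shown for CD44, VIM and VCAM1, 3 members whose control arrays at 48 h all lay under those at 12 h and for which RefSeq (GRCh38.p14) gives an entry. Of the 10 members, 8 had an entry, all but CLU and SOX9. Each sequence runs 5′ to 3′ from 250 bases before to 50 bases after the gene's start, with letters that match a searched motif in capitals.
VCAM1 chr1:100719492-100719791 plus strand: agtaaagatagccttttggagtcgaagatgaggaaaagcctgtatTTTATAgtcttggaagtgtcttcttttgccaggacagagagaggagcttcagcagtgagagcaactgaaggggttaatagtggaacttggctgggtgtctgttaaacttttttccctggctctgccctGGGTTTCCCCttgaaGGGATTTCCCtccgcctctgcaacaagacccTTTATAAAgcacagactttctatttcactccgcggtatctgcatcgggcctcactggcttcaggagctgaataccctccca
CD44 chr11:35138921-35139220 plus strand: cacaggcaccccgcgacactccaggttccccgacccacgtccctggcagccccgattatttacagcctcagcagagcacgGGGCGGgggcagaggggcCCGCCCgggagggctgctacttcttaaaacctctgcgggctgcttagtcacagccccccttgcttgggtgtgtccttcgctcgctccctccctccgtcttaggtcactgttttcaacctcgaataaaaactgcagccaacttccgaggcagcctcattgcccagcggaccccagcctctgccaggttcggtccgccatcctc
VIM chr10:17227991-17228290 plus strand: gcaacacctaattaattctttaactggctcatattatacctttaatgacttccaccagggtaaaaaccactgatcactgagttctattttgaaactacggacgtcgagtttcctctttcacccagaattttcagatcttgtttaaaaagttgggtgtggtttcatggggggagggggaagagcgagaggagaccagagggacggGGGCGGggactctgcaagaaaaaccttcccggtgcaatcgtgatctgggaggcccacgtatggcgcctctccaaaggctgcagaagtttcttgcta
The motifs were searched on both strands. GGGNTTNCCC, an NF-kB-type motif whose letters were set after the VCAM1 promoter had been read, occurs in 1.68% of all 35116 promoters of this length. TATAAA occurs in 11.5% of them, and the GC box GGGCGG in 45%. VCAM1 held the NF-kB-type letters at positions -77 and -62, counted from the start, and TATAAA at -29, where a match on the other strand, at -31, overlaps it. The third marked stretch of this kind, at -205, matches on the other strand as well. CD44 held 2 GC boxes, at -170 and -152, and VIM held 1, at -46. These matches describe letters and show no binding.

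The arrays were not equally precise. The median gene had an SD between replicates of 0.43 log2 units in the Ra 48 h group, 0.22 in the control 48 h group and 0.12 in both 12 h groups, so each comparison took its spread from its own arrays. Ra 48 h replicate 2 stood apart, with an SD over all probe sets of 2.81 log2 units against 3.09 to 3.14 on the other 11 arrays. At 48 h the median of all tested genes lay at -0.20 for Ra minus control, against 0.01 at 12 h. Values of the members at 48 h are therefore also given without that array. The 3′ to 5′ difference of the ACTB probe sets, a sign of RNA integrity, spanned 0.795 to 1.13 in Ra 48 h, 0.900 to 1.19 in control 48 h, 0.889 to 0.987 in Ra 12 h and 0.794 to 0.984 in control 12 h. Of 14 measured markers of the differentiated proximal tubule, only KHK and MIOX were detected, and 12 stayed under 5 log2 units on all arrays. MIOX, a kidney enzyme of inositol breakdown, rose with Ra at 12 h (0.60 ± 0.14 log2 units, adjusted p = 0.0299). At 48 h it averaged 8.75 in Ra and 10.01 in control cells, the other direction, without overlap (-1.26 ± 0.30, adjusted p = 0.191), and the difference of these effects was -1.86 ± 0.33 (0.0583). KHK was lower with Ra at 12 h without overlap, though not past the test (-0.27 ± 0.12, adjusted p = 0.167). At 48 h the groups overlapped for KHK (-0.23 ± 0.33). None of the 8 measured markers of distal segments or the 8 of immune cells was detected, and of 9 endothelial markers only CLDN5 was. Of 9 fibroblast markers 4 were detected (ACTA2, COL1A1, DCN and LUM), and of 4 measured podocyte markers 2 were (PODXL and SYNPO).

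**Figure D1:**
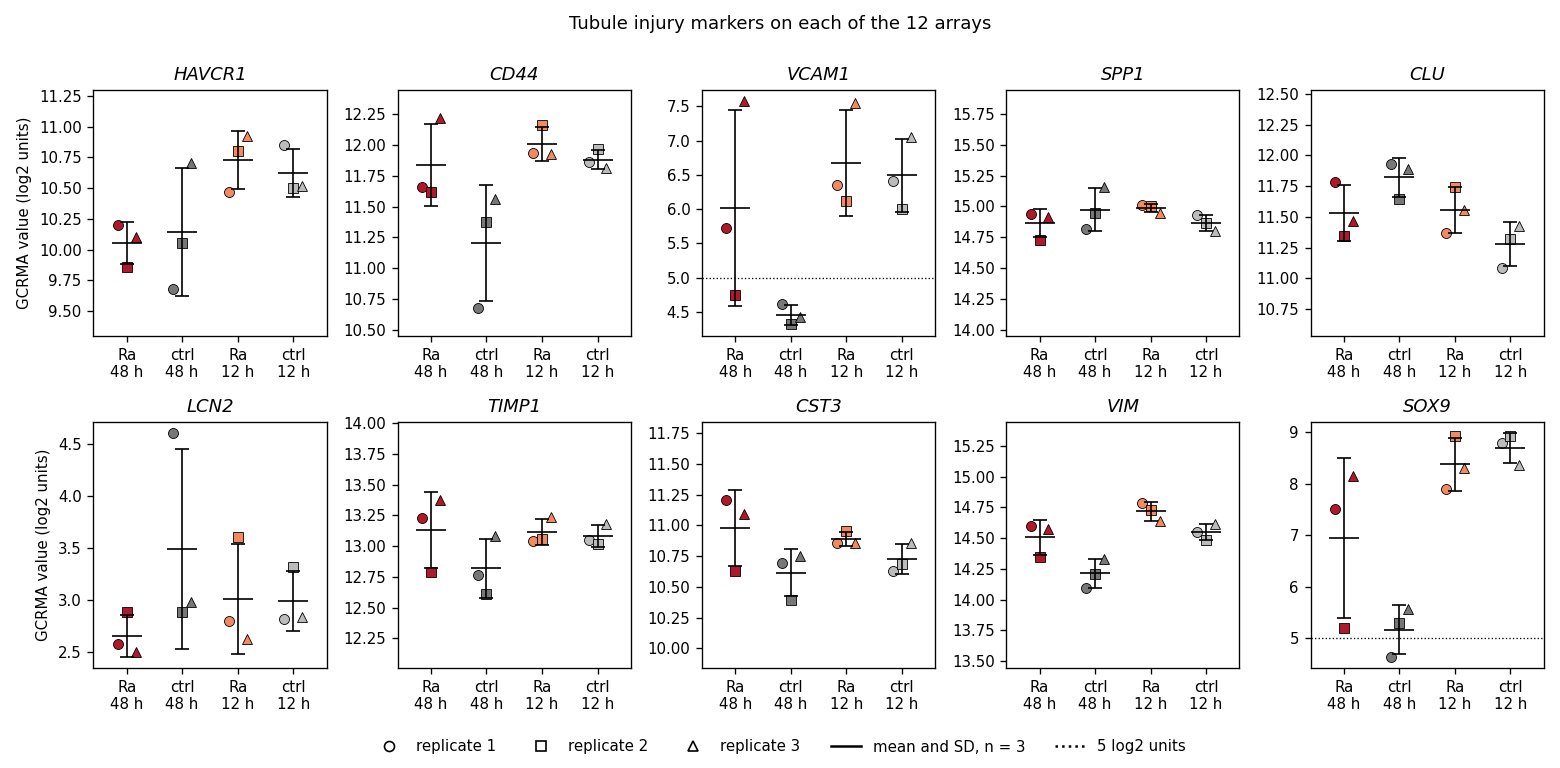
Each panel plots the GCRMA value in log2 units of 1 member on every array, by group from left to right (Ra 48 h, control 48 h, Ra 12 h, control 12 h), with the group mean and SD (n = 3). The dotted line marks 5 log2 units. SOX9 and VCAM1 have their lowest control values at 48 h and their widest spread in the Ra 48 h group.

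At 48 h, 0 of the 9 tested members passed the test, limma's moderated test with Benjamini-Hochberg adjustment over all genes at 0.05. The same test called 0% of all genes at this time, and the lowest adjusted p of any gene was 0.168. At an unadjusted p under 0.05, 3 members (SOX9, VCAM1 and VIM) and 1748 of 10050 genes were found. The members with the most positive differences were SOX9 and VCAM1, and only 0.269% and 0.517% of genes had a more positive difference than each of them. The Ra arrays all lay above the control arrays for CD44, VIM and VCAM1, 3 of 9 members, whereas 5.37% of all genes did so. For none of the 9 tested members did all Ra arrays lie below, against 18.6% of genes. The member median was 0.31 log2 units.

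SOX9, the repair transcription factor, read 7.50, 5.19 and 8.15 log2 units in Ra 48 h replicates 1 to 3, against 4.63, 5.29 and 5.56 in control 48 h. Replicates 1 and 3 of Ra lay above all controls, while replicate 2 lay among them. The difference was 1.79 ± 0.68 log2 units (SE, n = 3 each), or 3.46-fold, with a 95% interval of 0.23 to 3.35 and an adjusted p of 0.254. The second SOX9 probe set had the same arrangement, with 7.41, 4.81 and 8.51 in Ra 48 h against 4.05, 4.78 and 4.74 in control 48 h. There even the lowest Ra array was above the controls, by a narrow margin, and the mean difference was 2.39 ± 0.82 log2 units. Without Ra 48 h replicate 2 the difference of the first probe set was 2.67 ± 0.35, with an adjusted p of 0.159.

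VCAM1, the adhesion molecule of failed repair, read 5.72, 4.75 and 7.57 log2 units in Ra 48 h and 4.61, 4.32 and 4.43 in control 48 h. All 3 Ra arrays were above the controls, again with replicate 2 the closest to them. The difference was 1.56 ± 0.61 log2 units, or 2.95-fold, with an interval of 0.16 to 2.96 and an adjusted p of 0.263. It was 2.19 ± 0.53 without Ra 48 h replicate 2. VCAM1 is also an endothelial gene, and the mean level of the 9 endothelial markers was 3.11 to 3.37 log2 units in Ra 48 h and 3.07 to 3.13 in control 48 h, with PECAM1, CDH5 and VWF under 5 on all arrays. Every control 48 h value of VCAM1, its Ra 48 h replicate 2 and 1 control 48 h value of the first SOX9 probe set lay under 5 log2 units. There GCRMA values depend on its background model, and so do these folds. On the second SOX9 probe set every control 48 h value and Ra 48 h replicate 2 lay under 5 log2 units, so its narrow margin depends on that model too.

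CD44 was read by 13 probe sets, of which 8 had enough signal. On the brightest, Ra 48 h gave 11.66, 11.62 and 12.22 log2 units and control 48 h gave 10.67, 11.37 and 11.57. The groups did not overlap, with a difference of 0.63 ± 0.29 and an adjusted p of 0.298. The mean was higher with Ra on 8 of the 8 probe sets, by 0.63 to 0.87 log2 units, and 0 of them passed the test. Probe sets of 1 gene share the same RNA, so these are not 8 separate observations.

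VIM, the mesenchymal intermediate filament protein, read 14.60, 14.34 and 14.58 log2 units in Ra 48 h, against 14.10, 14.21 and 14.33 in control 48 h. The groups stood narrowly apart, with a difference of 0.29 ± 0.13 and an adjusted p of 0.283. The mean level of the 9 fibroblast markers was 5.15 to 5.51 log2 units in Ra 48 h and 5.01 to 5.45 in control 48 h. That mean holds 5 undetected markers, and the 4 detected ones differed in direction: COL1A1 was lower with Ra without overlap (-1.02 ± 0.49), while DCN, ACTA2 and LUM overlapped, at 0.88, 0.27 and 0.076. Their part in the VIM values was not tested. VIM and SPP1 lay close to the top of the scale, since array maxima were 15.85 to 16.17, and differences there can be compressed.

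TIMP1, CST3, HAVCR1, CLU and SPP1 overlapped between the groups. TIMP1, which inhibits metalloproteinases, spanned 12.79 to 13.38 log2 units in Ra 48 h and 12.61 to 13.08 in control 48 h. CST3, which inhibits cysteine proteases, spanned 10.63 to 11.21 in Ra 48 h and 10.40 to 10.75 in control 48 h. These inhibitors had differences of 0.31 ± 0.21 and 0.36 ± 0.24 log2 units, with 95% intervals of -0.16 to 0.78 and -0.19 to 0.92. HAVCR1, the receptor KIM-1, read 10.20, 9.86 and 10.10 log2 units in Ra 48 h and 9.68, 10.05 and 10.71 in control 48 h, so that all Ra values fell inside the control range. Its difference was -0.09 ± 0.30, with an interval of -0.78 to 0.60. CLU read 11.79, 11.35 and 11.46 log2 units in Ra 48 h and 11.93, 11.64 and 11.89 in control 48 h, a difference of -0.29 ± 0.20. SPP1 read 14.94, 14.73 and 14.91 in Ra 48 h and 14.81, 14.94 and 15.16 in control 48 h, a difference of -0.11 ± 0.12. Its second, dimmer probe set overlapped as well, at -0.53 ± 0.64. CLU and SPP1 had their lowest Ra value in replicate 2. After each array was centred on its median gene, HAVCR1 and SPP1 turned to 0.16 and 0.14 log2 units, so their direction at 48 h depends on the scaling. LCN2 (NGAL) ranged from 2.51 to 2.89 log2 units in Ra 48 h and from 2.89 to 4.60 in control 48 h, and from 2.63 to 3.61 in Ra 12 h and 2.82 to 3.32 in control 12 h, all under the detection level. Its Ra 48 h values all lay below its control 48 h values, the closest by less than the rounding,, a separation among undetected values that depends on the background model.

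Leaving out Ra 48 h replicate 2 left 0 members and 0% of genes past the test. The number of members whose Ra arrays all lay above the controls was then 6 of 9 (CD44, CST3, SOX9, TIMP1, VCAM1 and VIM), and the share of all genes doing so was 23.2%. The differences were 0.74 for CD44, 0.54 for CST3, 0.48 for TIMP1 and 0.38 log2 units for VIM. For HAVCR1, CLU and SPP1, which still overlapped, they were 0.0042, -0.20 and -0.045. With 2 arrays in a group, separation is easier to reach, which the share of all genes reflects.

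**Figure D2:**
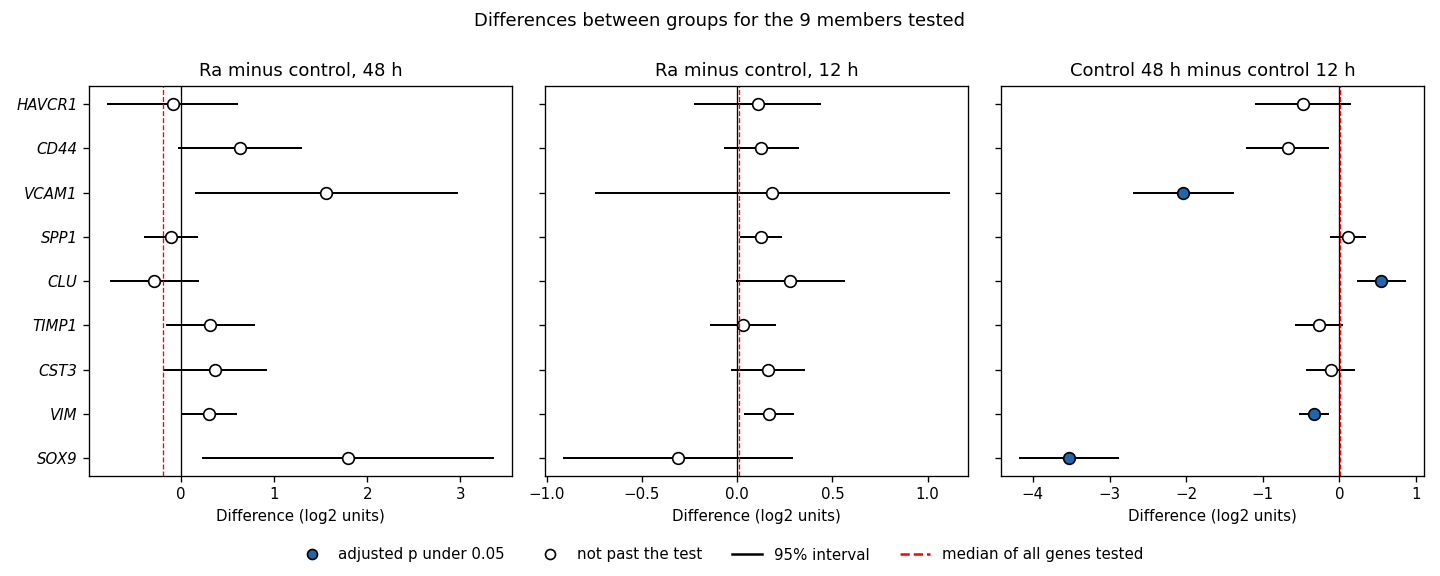
Differences in log2 units with 95% intervals for the 9 tested members: Ra minus control at 48 h, Ra minus control at 12 h, and control 48 h minus control 12 h, each on its own scale. Filled points passed the test, and the dashed line is the median of all tested genes. Filled points occur only between the control groups, for SOX9, VCAM1, VIM and CLU.

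At 12 h the test called 1366 of the 10050 genes (13.6%) and 0 of the 9 members. At an unadjusted p under 0.05 it found SPP1 and VIM, 2 members, and 3092 genes. The differences of the members were small, from -0.31 to 0.28 log2 units with a median of 0.13, and 8 of the 9 were above 0, as were 52.0% of all genes. The Ra arrays lay wholly above the control arrays for SPP1 and VIM, 2 of 9, close to the 18.4% of all genes that did so, and wholly below for no tested member, against 16.9% of genes.

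VIM read 14.78, 14.73 and 14.64 log2 units in Ra 12 h, against 14.55, 14.48 and 14.62 in control 12 h. The groups just missed overlapping, with a difference of 0.17 ± 0.05 and an adjusted p of 0.0813. The 4 detected fibroblast markers averaged higher with Ra as well, and 0 of 4 passed the test: over all 9 markers the mean level was 5.41 to 5.52 log2 units in Ra 12 h and 5.25 to 5.35 in control 12 h. Their part in the VIM values was not tested. SPP1, the cytokine-like matrix protein osteopontin, read 15.01, 15.00 and 14.95 in Ra 12 h and 14.93, 14.86 and 14.80 in control 12 h. The difference was 0.12 ± 0.05, with an adjusted p of 0.110. On the second, dimmer SPP1 probe set the groups overlapped, with a difference of 0.44 ± 0.20 log2 units. It spanned 7.64 to 8.16 in Ra 12 h and 7.17 to 7.81 in control 12 h.

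CLU, the secreted chaperone, read 11.37, 11.74 and 11.56 log2 units in Ra 12 h, against 11.08, 11.32 and 11.43 in control 12 h. Each Ra array was above the control array of the same number, although the groups overlapped, and the difference was 0.28 ± 0.12 with an adjusted p of 0.165. When replicate numbers were fitted as blocks, the adjusted p was 0.0294, and CLU became the 1 member called, beside 2351 genes. Of the other CLU probe sets with signal, 1 had a difference of 0.37 and the dim one 0.01 log2 units at 12 h.

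The CD44 result at 12 h depends on the probe set. The brightest one gave a difference of 0.13 ± 0.08, which did not pass. All 8 had a higher mean with Ra, by 0.13 to 0.65 log2 units. The 0.65 came from the dimmest, whose control 12 h values (5.19 to 5.41) lay close to the detection level. With every probe set tested as a feature of its own (17339 in all), 3 of the 8 passed, with differences of 0.36 ± 0.07 (adjusted p = 0.0260), 0.41 ± 0.10 (0.0449) and 0.27 ± 0.07 (0.0464). On the first of these, Ra 12 h gave 10.89, 10.82 and 10.95 log2 units and control 12 h gave 10.47, 10.53 and 10.56, with no overlap. The mean of the 8 probe sets differed by 0.37 log2 units, with an adjusted p of 0.0347. With 1 probe set per gene, 13.6% of all genes passed at 12 h, and the shares under these alternatives are not given here. Names ending in _x_at or _s_at mark probe sets that can bind related or several transcripts. All 3 that passed have such names, as do others that did not pass. The brightest and the dimmest of the 8 have plain _at names, with adjusted p-values of 0.366 and 0.201 in that fit.

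**Figure D3:**
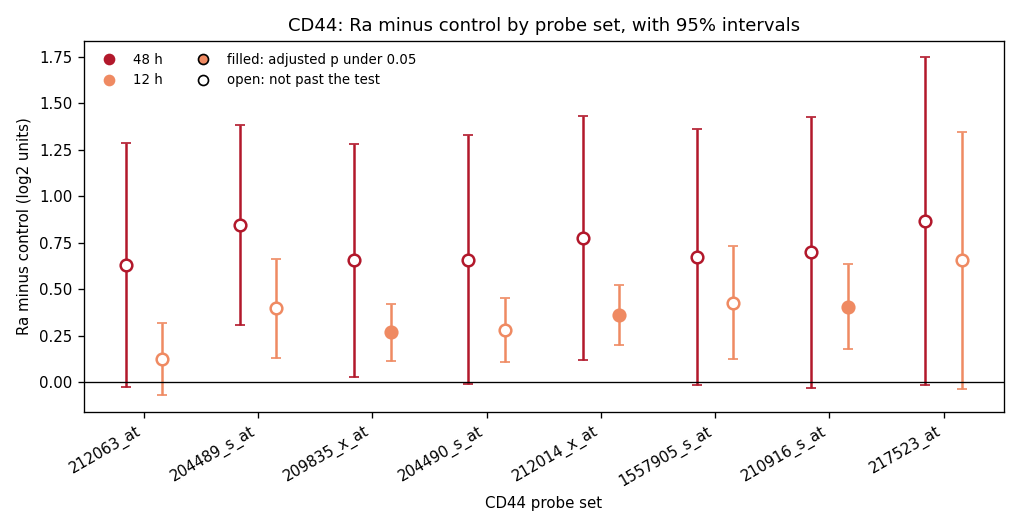
Ra minus control in log2 units for the 8 CD44 probe sets with signal, with 95% intervals, from the brightest on the left to the dimmest on the right. At each probe set the 48 h value stands left of the 12 h value. All 16 differences are above 0, and the 3 filled points, all at 12 h, passed the test.

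HAVCR1, VCAM1, SOX9, TIMP1 and CST3 overlapped between the 12 h groups. HAVCR1 read 10.47, 10.80 and 10.92 log2 units in Ra 12 h and 10.85, 10.50 and 10.51 in control 12 h, a difference of 0.11 ± 0.14 with an interval of -0.22 to 0.44. SOX9 was the 1 member with a lower mean in Ra, with 7.91, 8.93 and 8.30 against 8.78, 8.92 and 8.36 in control 12 h. Its difference was -0.31 ± 0.26, within the spread of the arrays. VCAM1 read 6.35, 6.11 and 7.55 in Ra 12 h and 6.41, 6.01 and 7.06 in control 12 h, a difference of 0.18 ± 0.40. TIMP1 differed by 0.03 ± 0.07 and CST3 by 0.16 ± 0.08 log2 units.

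More members passed the test between the 2 times in control cells than in the other 4 comparisons. Of the 9 tested, 4 passed the test, against 33.2% of all genes: CLU rose, and SOX9, VCAM1 and VIM fell. Falls alone made up 3 of 9, where 16.6% of all genes fell. The control 48 h arrays lay wholly below those of 12 h for CD44, VIM, VCAM1 and SOX9 and wholly above for CLU. That makes 5 of 9 members, while 50.8% of genes were separated in one direction or the other (26% lower, 24.8% higher).

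SOX9 averaged 5.16 ± 0.48 log2 units in control 48 h and 8.69 ± 0.29 in control 12 h (SD, n = 3 each). Its difference of -3.53 ± 0.27 (SE) was 11.5-fold, with an adjusted p of 0.00150, and 0.0398% of genes had a more negative one. The second SOX9 probe set gave -4.08 ± 0.25, with an adjusted p of 0.000853. VCAM1 averaged 4.45 ± 0.15 in control 48 h and 6.49 ± 0.53 in control 12 h, a fall of 4.10-fold (-2.04 ± 0.27 log2 units, adjusted p = 0.00408). The control 48 h means of both genes are near or under 5 log2 units, so the size of the fall depends on the background model.

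VIM fell by less, with a difference of -0.34 ± 0.08 and an adjusted p of 0.0182. The fibroblast marker mean was 5.01 to 5.45 log2 units in control 48 h and 5.25 to 5.35 in control 12 h. The VIM call was lost without control 12 h replicate 1 (0.0665), control 12 h replicate 3 (0.0706) or control 48 h replicate 2 (0.0610). CLU averaged 11.82 ± 0.16 log2 units in control 48 h and 11.28 ± 0.18 in control 12 h, a difference of 0.55 ± 0.13 with an adjusted p of 0.0204. A second bright CLU probe set gave 0.61 ± 0.15 (0.0263) and the dim one 0.43 ± 0.14 (0.0587). The CLU call was lost without control 12 h replicate 1 (0.0721) or replicate 2 (0.0645). CD44 had a difference of -0.68 ± 0.22 and just missed the test (0.0537), with a lower mean on all 8 probe sets. In the fit of 1 spread from all 12 arrays it passed (0.0477), beside 19.5% of all genes. CD44 also passed without control 48 h replicate 1 (0.0338) or replicate 3 (0.0135). Without that last array HAVCR1 (0.0112) and TIMP1 (0.0113) passed too, for 7 members in all. HAVCR1, TIMP1, SPP1 and CST3 overlapped, with differences of -0.48 ± 0.26, -0.26 ± 0.13, 0.11 ± 0.09 and -0.11 ± 0.13 log2 units.

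In Ra-treated cells 0 of the 9 members and 0% of all genes passed the test between the times, and 1 member, HAVCR1, had an unadjusted p under 0.05, as did 843 genes. HAVCR1 averaged 10.05 ± 0.17 log2 units in Ra 48 h and 10.73 ± 0.24 in Ra 12 h (SD, n = 3 each), with no overlap, a difference of -0.68 ± 0.21 and an adjusted p of 0.584. VIM and SPP1 also lay wholly lower at 48 h, which makes 3 of 9, where 17% of all genes did so, and no tested member lay wholly higher, against 2.49% of genes. Without Ra 48 h replicate 2, CST3 did (0.26 log2 units), as did 16.8% of genes. The second SPP1 probe set also lay wholly lower at 48 h with all arrays, by more than the first (-0.85 ± 0.30 against -0.13 ± 0.09 log2 units). SOX9 averaged 6.95 ± 1.55 in Ra 48 h and 8.38 ± 0.51 in Ra 12 h, and VCAM1 6.01 ± 1.43 and 6.67 ± 0.77, and the arrays of each overlapped. Their differences of -1.43 and -0.66 log2 units were -0.55 and -0.026 without Ra 48 h replicate 2.

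A test on all 12 arrays asked if Ra acted differently at the later time. None of the 9 members passed, while 2 genes did (0.0199%), and at an unadjusted p under 0.05 there were 2 members (CLU and SOX9) and 1933 genes. SOX9 had a difference of effects of 2.10 ± 0.83 log2 units, with an interval of 0.30 to 3.90 and an adjusted p of 0.196. Without Ra 48 h replicate 2 it was 2.98 ± 0.46 with an adjusted p of 0.0349, past the test together with 3.18% of all genes. CLU went the other way, at -0.57 ± 0.23 (0.202), and VCAM1 had 1.38 ± 0.82 (0.375), or 2.01 ± 0.73 (0.115) without Ra 48 h replicate 2. The comparison at 48 h, the change in control cells and this difference share the control 48 h arrays, so they are not separate evidence.

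By group mean, SOX9 was highest in control 12 h, followed by Ra 12 h, Ra 48 h and control 48 h. VCAM1 was highest in Ra 12 h, followed by control 12 h, Ra 48 h and control 48 h. Of the neighbours in these orders, Ra and control at 12 h, and Ra and control at 48 h, did not differ past the test for either gene, nor did Ra 48 h and Ra 12 h for SOX9. HAVCR1 averaged 10.05 log2 units in Ra 48 h, 10.15 in control 48 h, 10.73 in Ra 12 h and 10.62 in control 12 h, and no pair compared passed the test.

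**Figure D4:**
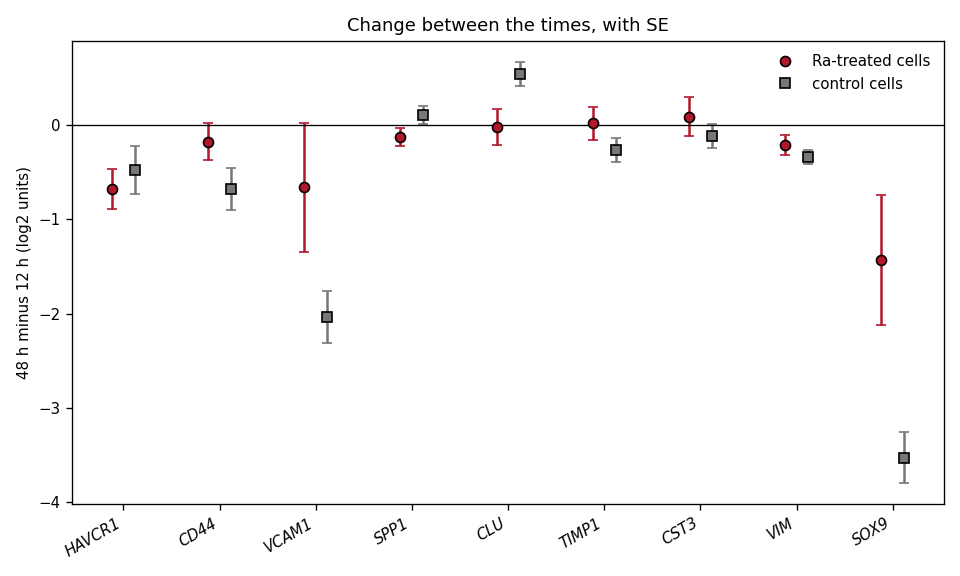
Change between the times, 48 h minus 12 h, in log2 units with SE, for Ra-treated cells (circles) and control cells (squares). SOX9 and VCAM1 lie at -1.43 and -0.66 in Ra-treated cells (-0.55 and -0.026 without Ra 48 h replicate 2), and at -3.53 and -2.04 in control cells. CLU lies at -0.02 in Ra-treated cells and at 0.55 in control cells.

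Members were also set against each other by the root mean square difference of their 12-array profiles, each centred on its own mean. The closest pair was the 2 protease inhibitors, TIMP1 and CST3, at 0.12 log2 units, followed by VIM with TIMP1 (0.16) and VIM with CST3 (0.18). For the 4 members called between the control groups, the 3 nearest genes were named. SOX9 was nearest to MCM10 (0.46) and ORC1 (0.55), both needed to license or start DNA replication, and to CBX2 (0.66), a Polycomb subunit. VCAM1 was nearest to OTUB2 (0.36), HIVEP3 (0.42) and MAP3K5 (0.44). VIM was nearest to HDAC2 (0.06), PTMA (0.08) and TYSND1 (0.08), and CLU to CLDN3, EAPP and ZSCAN18 (0.13 each). Genes that vary little are close to many others, so distances are not comparable between members.

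Genes around the members were followed in 9 lists of related genes, 106 tested genes in all. At 12 h, 14 of the 106 rose and 3 fell, beside 7.34% and 6.25% of all genes. With replicate numbers as blocks 28 rose and 6 fell. The block also raised the count of all genes called, as given for CLU, and this holds for its counts in the lists below. Without Ra 12 h replicate 1 or 2, or control 12 h replicate 1 or 2, the total was between 3 and 5, and without control 12 h replicate 3 it was 12. Counts without single arrays, here and in the lists below, have no share of all genes beside them. With 1 spread from all 12 arrays, 0 of the 106 related genes passed at 12 h, beside 0.0299% of all genes. Between the control groups 14 rose and 25 fell, beside 16.6% of all genes each way, and the total of 39 was between 18 and 23 without control 12 h replicate 1, 2 or 3 or control 48 h replicate 2. At 48 h, as for all genes, none passed the reported fit, so values are given only where the groups did not overlap. With Ra at 48 h, 5.37% of all genes lay wholly higher and 18.6% wholly lower, and the median of all tested genes was -0.20 log2 units. The related genes' values at 48 h include Ra 48 h replicate 2, and their values without it are not given here. The fit of 1 spread from all 12 arrays called several related genes at 48 h, among them HAS3 (adjusted p = 0.0129), CDH6 (0.0145) and CEBPG (0.0148). It called 12.6% of all genes at that time.

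Cysteine cathepsins, the lysosomal proteases that cystatin C inhibits, and other cystatins had 4 of 11 tested genes that rose at 12 h and 0 that fell, with a median of 0.43 log2 units beside 0.01 for all genes. CTSO averaged 6.92 log2 units in Ra 12 h and 6.02 in control 12 h, a difference of 0.90 ± 0.14 (adjusted p = 0.0120). The differences of CTSH, CTSB and CTSF were 0.64 ± 0.14, 0.63 ± 0.13 and 0.46 ± 0.12, with adjusted p-values of 0.0291, 0.0253 and 0.0391. With the block 6 of 11 rose, and without Ra 12 h replicate 2 none did. At 48 h, legumain (LGMN), a related protease, averaged 11.54 in Ra and 12.51 in control cells (-0.97 ± 0.23), and CTSV differed by -0.54 ± 0.27. In control cells, 48 h over 12 h, CTSH rose by 1.58 and LGMN by 1.16 log2 units, the 2 of 11 that passed.

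Among the integrins, hyaluronan enzymes and cytoskeletal linkers that work with CD44 and osteopontin, 5 of 14 tested rose at 12 h and 0 fell, with a median of 0.27. HAS3, which makes hyaluronan, the ligand of CD44, averaged 11.08 log2 units in Ra 12 h and 10.22 in control 12 h, a difference of 0.87 ± 0.08 (adjusted p = 0.00446). ITGB3 and ITGB5, subunits of integrins that bind osteopontin, differed by 0.48 ± 0.12 and 0.37 ± 0.08, and radixin (RDX), which ties CD44 to actin, by 0.28 ± 0.07. With the block 9 of the 14 rose. Without single arrays between 1 and 7 rose, 1 of them without Ra 12 h replicate 1 or 2 or control 12 h replicate 1 or 2. At 48 h HAS3 averaged 10.26 in Ra and 8.39 in control cells (1.87 ± 0.46, adjusted p = 0.193) without overlap. In control cells over time 2 rose and 5 fell, and HAS3 fell by 1.83 log2 units.

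Of the 18 other tubule injury and urine markers tested, 2 rose and 1 fell at 12 h. With the block 7 rose and 2 fell, and without Ra 12 h replicate 1 or 2 or control 12 h replicate 1 or 2 none rose. PLAUR, the urokinase receptor, averaged 9.45 log2 units in Ra 12 h and 8.64 in control 12 h (0.80 ± 0.16, adjusted p = 0.0206), and midkine (MDK), a growth factor, differed by 0.50 ± 0.14 (0.0472). CD24, a surface glycoprotein, fell, at 13.38 in Ra against 13.80 in control cells (-0.42 ± 0.05, 0.00643). At 48 h the largest differences without overlap were in KRT20 (4.74 in Ra, 7.03 in control), CHI3L1 (7.04 and 8.85) and PLAUR (8.16 and 6.81), or -2.29 ± 0.57, -1.80 ± 0.52 and 1.35 ± 0.49 log2 units. The mean of KRT20 in Ra 48 h lay under 5 log2 units, so the size of its difference depends on the background model. In control cells KRT20 and CHI3L1 rose by 2.03 and 2.80 between the times and PLAUR fell by 1.83, among 4 that rose and 3 that fell.

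Among intermediate filament genes and their partners, 0 of 9 passed at 12 h. In control cells 6 of the 9 fell between the times and 0 rose, with a median of -0.58 log2 units beside 0.01 for all genes. They were NES (nestin, -1.79 ± 0.40), the nuclear lamins LMNB1 (-1.64 ± 0.31), LMNB2 (-1.56 ± 0.27) and LMNA (-0.44 ± 0.12), the linker PLEC (-1.50 ± 0.20) and the keratin KRT8 (-0.58 ± 0.15). Without single control arrays, 3 to 6 of them fell, 3 of them without control 12 h replicate 2 or 3 or control 48 h replicate 2. At 48 h, Ra arrays of NES, LMNB2 and LMNB1 lay above the controls, with differences of 1.47 ± 0.45, 1.29 ± 0.35 and 1.21 ± 0.34.

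Genes of failed repair had 1 call in 12 tested at 12 h, SOX4, a transcription factor of the SOX family, at 11.98 log2 units in Ra and 11.57 in control cells (0.41 ± 0.09, adjusted p = 0.0232), which was lost without Ra 12 h replicate 1 or 2 or control 12 h replicate 1 or 2. At 48 h CDH6, a cadherin of the developing kidney, averaged 12.87 in Ra and 11.30 in control cells (1.57 ± 0.38), and ITGB8 and TGFB2, which act in TGF-beta signalling, differed by 1.15 ± 0.37 and 0.68 ± 0.30, all without overlap. In control cells 1 fell, TPM1.

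The regulators NF-kB, STAT3 and C/EBP, which drive VCAM1 and LCN2 among other genes, gave 1 rise and 1 fall in 16 tested at 12 h, and 2 of each with the block. JUNB, an AP-1 subunit, differed by 0.68 ± 0.12 (adjusted p = 0.0139) and STAT3 by -0.43 ± 0.06 (0.0107). Without Ra 12 h replicate 1 or 2, 0 of the 16 rose and 1 fell. At 48 h CEBPG averaged 7.92 log2 units in Ra and 10.28 in control cells (-2.35 ± 0.58), CEBPB 12.50 and 13.59 (-1.09 ± 0.32), and JUNB 7.57 and 6.52 (1.05 ± 0.34), none past the test. CEBPG and CEBPB rose by 1.67 and 1.58 in control cells between the times, the 2 rises beside 3 falls.

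SOX9's paralogs and other repair transcription factors gave 1 rise and 1 fall in 14 tested at 12 h, LHX1 at 1.01 ± 0.23 (adjusted p = 0.0278) and PAX8 at -0.46 ± 0.09 (0.0225), both regulators of kidney development. Without Ra 12 h replicate 1 or 2, or control 12 h replicate 1 or 2, 0 of the 14 passed. Without Ra 12 h replicate 3, 0 rose and 1 fell. LHX1 also stood apart at 48 h (0.96 ± 0.45). In control cells 5 fell and 1 rose, and the largest fall was that of FOXM1, a regulator of cell division (-1.63 ± 0.30). Metalloproteinases and their inhibitors, the partners of TIMP1, had 0 of 9 calls at 12 h. At 48 h MMP1, a collagenase, averaged 9.15 in Ra and 7.61 in control cells (1.54 ± 0.40), and the sheddases ADAM9 and ADAM17 differed by -1.29 ± 0.40 and -0.81 ± 0.31. Of 3 tested receptors for clusterin, lipocalin 2 and TIM-1 partners, 0 passed at 12 h, and LRP8, which binds clusterin, differed by 1.61 ± 0.49 at 48 h.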

How the data were processed

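The deposited values are GCRMA expression values of Affymetrix arrays on a log2 scale, made by the authors per the submitters' processing notes. GCRMA corrects background by probe sequence, normalizes arrays and summarises probe sets. Its version is not given in the sources used here. No depth exists for arrays, and the number of arrays, 3 per group, limits the precision. Of 54675 probe sets, 41097 had 1 gene symbol, 1801 several and 11777 none. Those with 1 symbol and at least 3 arrays at 5 log2 units were kept (17339), and the one with the highest mean stood for its gene.

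Each contrast was fitted on the arrays it compares, and the difference of effects on all 12, with limma 3.58.1 in R 4.3.3 (intensity trend, Benjamini-Hochberg over 10050 genes, 0.05). The code was tested on simulated data. Plots used matplotlib 3.10.9. Members, lists and the choice of fit were made with earlier results of these data known. Named are all members, the related genes with the largest difference (up to 4 of a list past the test at 12 h, up to 3 without overlap at 48 h) and the 3 nearest profiles of called members. Related genes named between the control groups were chosen after their values were seen.

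Whether replicate numbers pair samples was judged from the correlation of deviations from group means. At 12 h same-numbered arrays correlated at 0.182, 0.421 and 0.344, all over 0.1, so the numbers may pair those samples. The reported fits have no block and blocked values stand beside results at 12 h that they change. At 48 h the values were 0.301, -0.219 and 0.097. Alternatives were other filters, probe set choices, scalings, moderation, array weights, a replicate block, fits on 12 arrays, a 2-fold minimum and leaving out each array.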

Additional observations from a re-analysis of the deposited data

How the results depend on the processing

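SOX9, VCAM1 and VIM had signal only on probe sets with _s_at names. Leaving out cross-hybridising probe set types therefore left these genes untested, so the lower count in that setting is not a loss of their calls. Their calls rest on _s_at probe sets alone. SPP1, which had no call, had signal only on an _s_at and an _x_at probe set and was left untested in that setting as well. Of the 4 calls between the control groups, SOX9 and VCAM1 passed under every alternative that tested them. VIM (lost without the filter, 0.0534, and without the trend, 0.0592) and CLU lost theirs without some single arrays. Members called between the control groups numbered 1 without cross-hybridising probe set types, 8 with array weights and 2 at 2-fold or more, and 2 to 7 when single arrays were left out (2 when control 12 h replicate 1 was left out, 7 when control 48 h replicate 3 was). For Ra at 12 h, 1 member was called with the mean of probe sets (CD44), array weights (VIM) and group weights over 12 arrays (VIM), and 0 to 1 when single arrays were left out (VIM without Ra 12 h replicate 3). The fit of all 12 arrays with 1 spread called 0 members and 3 genes at 12 h, and 0 members and 1262 genes at 48 h. Between the control groups that fit called 1955 genes, and among the members 1 rise and 4 falls, CD44 included. For Ra at 48 h, 1 member was called with quantile normalization (VIM, adjusted p = 0.0482) and with centring (SOX9, 2.04 log2 units, 0.0472), and 6 with array weights, which called 4790 genes. Genes called then numbered 639 with quantile normalization and 714 with centring, against 0. For the difference of effects, the count was 1 with quantile normalization (SOX9, 2.33) and with centring (SOX9, 2.37), 5 with array weights, and 0 to 1 when single arrays were left out (SOX9 without Ra 48 h replicate 2). The cause of these changes was not tested. Where no count of all genes stands beside a member count, the member count cannot be set against the share of all genes in that fit.

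With the replicate number as a block, 1 member was called at 12 h (CLU) and 1 in Ra cells between the times (SOX9, -1.43, adjusted p = 0.0135), where the arrays are not shown to be paired. The block changed no other member's call. It called 2351 genes at 12 h and 235 in Ra cells between the times.

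Signs turned only for differences that did not pass. At 12 h, array weights gave -0.025 for HAVCR1 and -0.018 for VCAM1, and leaving out arrays gave -0.26 to 0.47 for VCAM1 and -0.031 to 0.079 for TIMP1. At 48 h, HAVCR1 was 0.13, 0.16 and 0.046 with quantile normalization, centring and array weights and -0.33 to 0.19 without single arrays, and SPP1 was 0.14 with centring. The difference of effects for HAVCR1 was 0.010, 0.067 and 0.077 in the same order and -0.43 to 0.081 without single arrays, and for SPP1 it was 0.032 with centring. In Ra cells between the times, centring gave 0.22 for CLU, 0.12 for SPP1, 0.072 for CD44 and 0.037 for VIM, quantile normalization 0.15 for CLU, and array weights 0.13 for CD44 and 0.81 for VCAM1. Without single arrays the ranges were -0.15 to 0.071 for CLU, -0.11 to 0.19 for TIMP1 and -0.028 to 0.26 for CST3.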
